A study of Mus musculus with 27 samples.

Results

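ADAM and ADAMTS genes encode a family of zinc metalloproteases and their close relatives, and their expression was followed here in mouse tibialis anterior muscle after volumetric muscle loss (VML), the surgical removal of a piece of muscle too large to regrow. Members were taken as every protein-coding gene of the deposited table whose symbol begins with Adam and a digit or with Adamts, which gave 57 of 22046 protein-coding genes and of 54532 genes in all. The 27 samples were tibialis anterior muscles of male C57BL/6 mice, operated at 8 weeks of age by excision of 40% of the muscle, and comprised 5 uninjured control muscles and 5, 6, 6 and 5 muscles collected 3, 7, 14 and 21 days after VML. All 5 groups share the strain and carry no transgene or drug, and the labels call the uninjured muscles controls without naming a sham operation. The public record calls the excision unilateral and the methods of the study call it bilateral, so that it is not known whether any 2 samples came from 1 mouse, and the p-values measure the spread between these samples only. Coordinates are as deposited and for 56 of the 57 members match GENCODE gene models on GRCm38. Expression is given as FPKM, the fragments per kilobase of gene divided by a denominator for each sample, as deposited. The mean ratio of this denominator to the sample's reads was 0.782 in uninjured muscle. On days 3, 7, 14 and 21 it was 1.25, 1.18, 1.04 and 0.897. The scaling thus went with the groups, and every comparison of FPKM between groups includes it.

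ADAM proteins sit in the cell membrane, where the active ones cut the outer part of other membrane proteins and so release growth factors, cytokines and receptors, a step called shedding. ADAMTS proteins are secreted into the extracellular matrix, where they trim procollagens or cut proteoglycans and other matrix proteins, and the ADAMTS-like proteins share their matrix-binding domains but have no protease. In muscle, members of both groups are known for parts in myoblast fusion, in inflammation and in the turnover of the matrix around the fibres.

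Of the 57 members, 23 reached an FPKM of 0.5 in 5 samples or more and were tested, among 14630 genes in all. These were 8 of the 9 ADAMs with an active protease outside the germ line, 1 of the 3 ADAMs without a working protease, all 7 ADAMTS that cut hyalectans (the large matrix proteoglycans such as versican and aggrecan), 2 of the 3 procollagen N-proteinases, both ADAMTS that cut the cartilage oligomeric matrix protein (COMP), 1 of 7 other ADAMTS and 2 of 5 ADAMTS-like genes. None of the 21 remaining ADAM genes, most of them genes of germ cells and the epididymis, passed, and the highest value among them was an FPKM of 0.550 for Adam1a. Of the 34 members that were not tested, 14 had fewer than 10 reads in all samples together, and 10 of these 14 had no read in any sample. Adamts4 passed narrowly, with 7 samples at 0.5 or above, whereas Adamtsl2 missed the minimum with 4 such samples and a highest FPKM of 0.914. In 6 of the tested members (Adam8, Adam11, Adam12, Adamts4, Adamts7 and Adamts20) every uninjured sample lay below 0.5, so that they could pass only through injured muscles. The other tested members included 13 with an FPKM of at least 0.5 in every uninjured sample. Adamts9, Adamts12, Adamts14 and Adamts15 reached 0.5 in only some uninjured samples, so that they too needed injured muscles to pass.

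Samples did not always lie with their own group. Over all tested genes, 9 of the 27 were nearer to the mean profile of some other group than to the mean of their group's remaining samples, among them day 3 replicate 5, nearest day 7, and day 7 replicate 5, nearest day 3. Replicate 5 of day 3 was the highest sample of its group for 12 of the 23 tested members and the lowest for 4, among the latter Adam8. Replicate 5 of day 21 was likewise highest for 12 and lowest for 4, and replicate 5 of day 14 highest for 11 and lowest for none.

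In uninjured muscle the most abundant member per length was the ADAMTS-like gene Adamtsl5 with a mean FPKM of 17.7 ± 2.799 (SD, n = 5), followed by Adam9 with 10.3 ± 3.12, Adamtsl4 with 5.597 ± 1.29, Adam15 with 5.301 ± 0.962 and Adamts8 with 4.83 ± 3.03. The ranges of neighbours in this order overlapped, except that the lowest uninjured value of Adamtsl5 (14.0) lay above the highest of Adam9 (13.7). On day 3 the order was Adam15 with 12.4 ± 2.17, Adamtsl5 with 11.8 ± 3.70, Adam9 with 10.01 ± 2.38 and Adam8 with 9.52 ± 6.69, and the ranges of these 4 genes overlapped one another. Adam8, which had stood at 0.129 ± 0.0863 without injury, thus came to lie among the most abundant members. The FPKM summed over all members had a median of 61.7 in uninjured muscle, 90.5 on day 3, 77.4 on day 7, 71.0 on day 14 and 72.2 on day 21, and the lowest sum on day 3 (80.8) lay above the highest without injury (76.0).

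Each time point was compared with uninjured muscle on log2(FPKM + 1) with limma, in 1 fit of all 27 samples, and a gene was called at a two-sided Benjamini-Hochberg adjusted p under 0.05 over all 14630 tested genes. On day 3, 11 of the 23 tested members were called higher and 2 lower, against 23.4% and 19.8% of all tested genes. On day 7 the counts were 10 higher and 2 lower, against 14.96% and 14.4%, and on day 14 they were 5 higher and 1 lower, against 9.02% and 11.3%. On day 21 no member was called higher and 1 was called lower, against 1.74% and 1.69%. The median log2 fold change of the tested members was 0.31 on day 3, 0.53 on day 7, 0.43 on day 14 and 0.21 on day 21, where that of all tested genes was 0.01 to 0.03. Over the 13 members at or above 0.5 in every uninjured sample it was 0.30, 0.26, 0.45 and 0.20. Scaling the FPKM of every sample to 1 sum moved the median of all tested genes to 0.51, 0.48, 0.29 and 0.12, and 14, 15, 7 and 0 members were then called higher and 0, 0, 1 and 0 lower. With this scaling, 6868, 6304, 1678 and 42 of all 14630 tested genes were called higher and 322, 209, 107 and 7 lower. Because members low in uninjured muscle entered the test only by being high after injury, the counts are also given for the 13 members at or above 0.5 in every uninjured sample, of which 5, 4, 4 and 0 were called higher and 2, 2, 1 and 1 lower at the successive times. The injured and uninjured samples did not overlap for 11 of the 23 members on day 3, 9 on day 7, 7 on day 14 and 4 on day 21, all of them higher after injury, and for 5, 4, 5 and 2 of the 13 members just named. The share of all tested genes without overlap in either direction was 36.3%, 12.6%, 15.7% and 10.4%.

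**Figure D1:**
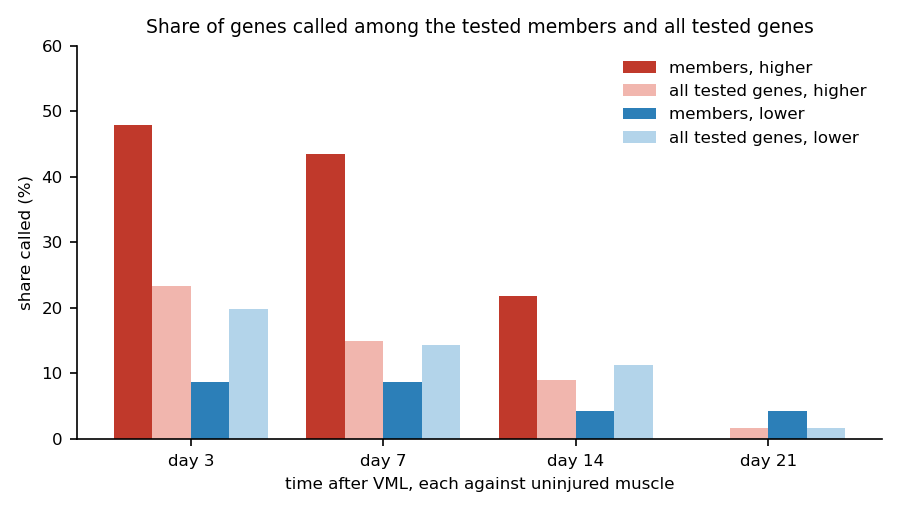
Share of genes called against uninjured muscle at 3, 7, 14 and 21 days after VML (x axis), in percent (y axis), for the 23 tested ADAM and ADAMTS members (dark bars) and all 14630 tested genes (light bars), higher in red and lower in blue. On day 3, 47.8% of the tested members were called higher and 8.70% lower, and on day 21 the shares were 0% and 4.35%; the members' share includes genes that could pass the filter only through injured muscles.

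The calls fell into few courses in time. Adam8, Adam12, Adam19, Adamts4, Adamts12 and Adamts14 were called higher on days 3 and 7, Adam10, Adamts2 and Adamts7 on days 3, 7 and 14, and Adam15 and Adam17 on day 3 alone. Adam33 was called higher on days 7 and 14 and Adamts10 on day 14. In the other direction, Adamts8 was called lower at all 4 times and Adamtsl5 on days 3 and 7. No call at any time was made for Adam9, Adam11, Adamts1, Adamts5, Adamts9, Adamts15, Adamts20 and Adamtsl4. By its mean, 9 members were highest on day 3, 4 on day 7, 4 on day 14, 3 on day 21 and 3 in uninjured muscle.

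**Figure D2:**
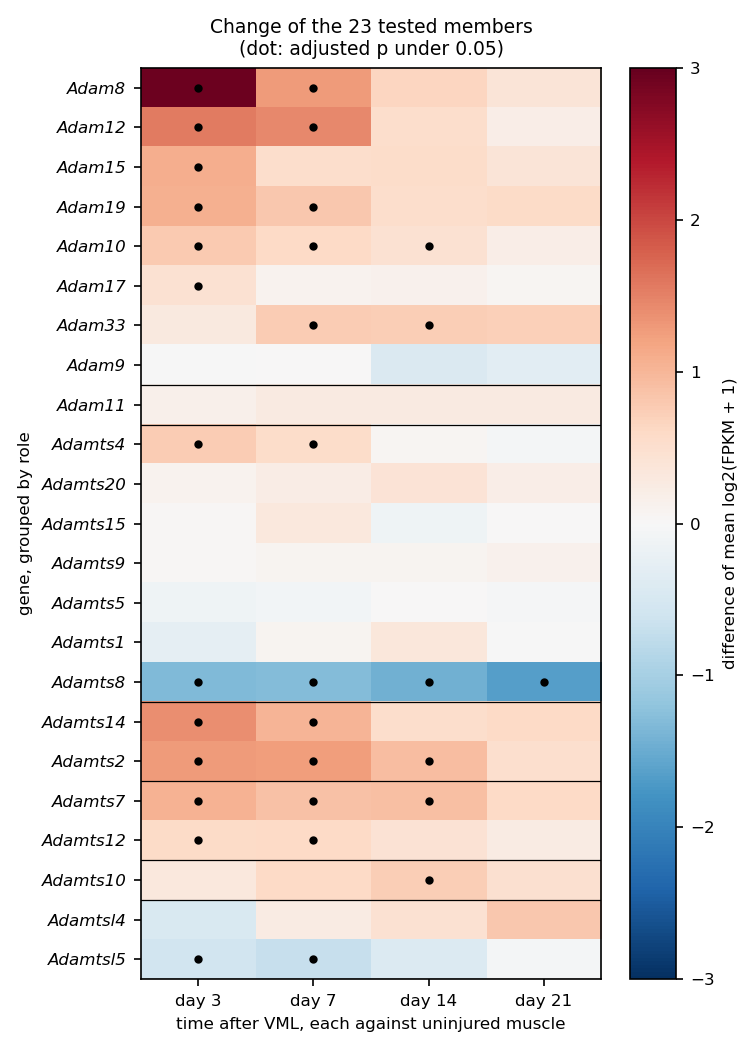
Difference of mean log2(FPKM + 1) between each time after VML (columns) and uninjured muscle for the 23 tested members (rows, grouped by role from the ADAM proteases at the top to the ADAMTS-like genes at the bottom), from blue (lower) to red (higher), with a dot where the adjusted p was under 0.05. There are 11 higher calls on day 3, 5 on day 14 (Adam10, Adamts2 and Adamts7, called on day 3 too, and Adam33 and Adamts10, which were not) and none on day 21, and Adamts8 is the 1 gene with a dot in every column.

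The sequences before the start of 4 of these genes are shown because Adam8, Adamts14 and Adamts2 had the largest rises on day 3 among the ADAM and ADAMTS genes with a window, and Adamtsl5 is the member called lower whose start is in the table used. The windows run 5′ to 3′ on the strand of the gene, from 250 bases before to 50 bases after the start in RefSeq on GRCm38.p6. Capitals mark exact matches on either strand to the GC box GGGCGG (which reads CCGCCC on the other strand), known as a site of SP1 and its relatives, and to the E-box CAGCTG, known as a site of the myogenic factors. The lines give Adam8 from chr7:139992513-139992812 (minus strand), Adamts2 from chr11:50601835-50602134 (plus strand), Adamts14 from chr10:61273370-61273669 (minus strand) and Adamtsl5 from chr10:80348399-80348698 (minus strand).
Adam8: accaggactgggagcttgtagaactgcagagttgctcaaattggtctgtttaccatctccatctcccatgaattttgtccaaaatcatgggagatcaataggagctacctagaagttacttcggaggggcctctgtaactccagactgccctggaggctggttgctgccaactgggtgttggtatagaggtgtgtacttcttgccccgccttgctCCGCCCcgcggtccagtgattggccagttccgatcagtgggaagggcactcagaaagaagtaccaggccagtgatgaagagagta
Adamts2: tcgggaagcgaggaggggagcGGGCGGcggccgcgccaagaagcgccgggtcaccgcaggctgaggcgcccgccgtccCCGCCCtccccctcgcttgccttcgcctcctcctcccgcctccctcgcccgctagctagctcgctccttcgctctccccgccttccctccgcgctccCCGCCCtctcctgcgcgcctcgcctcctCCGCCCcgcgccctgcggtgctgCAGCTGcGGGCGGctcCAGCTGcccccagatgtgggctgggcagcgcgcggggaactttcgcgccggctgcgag
Adamts14: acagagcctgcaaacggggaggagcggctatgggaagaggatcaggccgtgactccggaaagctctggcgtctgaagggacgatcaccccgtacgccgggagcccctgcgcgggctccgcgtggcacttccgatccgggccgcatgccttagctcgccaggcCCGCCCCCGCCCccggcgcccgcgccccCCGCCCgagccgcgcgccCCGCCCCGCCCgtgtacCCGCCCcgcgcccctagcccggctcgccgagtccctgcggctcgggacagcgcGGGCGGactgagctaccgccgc
Adamtsl5: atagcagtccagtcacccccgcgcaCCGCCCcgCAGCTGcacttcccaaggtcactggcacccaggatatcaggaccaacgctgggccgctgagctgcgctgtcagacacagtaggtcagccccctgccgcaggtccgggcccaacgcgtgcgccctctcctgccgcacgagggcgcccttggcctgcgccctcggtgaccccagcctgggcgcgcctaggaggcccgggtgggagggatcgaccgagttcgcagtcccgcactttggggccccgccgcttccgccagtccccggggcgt
Adam8 held 1 GC box, Adamts2 5 GC boxes and 2 E-boxes, Adamts14 7 GC boxes and Adamtsl5 1 of each, with each of 2 overlapping matches counted. Windows were found for 13 of the 23 tested members (15 windows, of which 3 belong to Adam19). A GC box lay in 12 of these 15, against 35.7% of 32851 windows of all genes, and an E-box in 6, against 16.3%. The windows of all genes are not limited to genes that passed the minimum, as those of the members are, so that the 2 sets are unlike. The AP-1 site TGANTCA lay in 1 (Adam19, against 7.81%), the TATA box TATAAA in 1 (Adamts1, against 13.6%) and the PU.1 site GAGGAAGT in none (against 3.20%), each searched on both strands. The windows of the members had a median GC content of 68.0%, against 52.7% for all windows. Of the members with a GC box, Adamts1, Adamts9, Adamts20 and Adamtsl4 were called at no time and Adamtsl5 was called lower, and Adamts12, called higher, had none.

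Of the 8 active ADAMs tested, 6 were called higher on day 3, 5 on day 7, 2 on day 14 and 0 on day 21, and none lower at any time. Without Adam8 and Adam12, which could pass only through injured muscles, the counts were 4, 3, 2 and 0 of 6 (background 23.4%, 14.96%, 9.02% and 1.74% of all tested genes), with medians of 0.63, 0.57, 0.49 and 0.30. Over all 8 the median log2 fold change was 0.93 on day 3, 0.69 on day 7, 0.53 on day 14 and 0.30 on day 21. Adam8 (ENSMUSG00000025473, chromosome 7 from 139978932 to 139992562), a protease known from neutrophils and macrophages, showed the largest change of any member. Its FPKM was 0.0648, 0.1002, 0.1103, 0.0876 and 0.2799 in the 5 uninjured samples and 8.62, 4.52, 14.2, 18.2 and 2.05 in the 5 samples of day 3. The 6 samples of day 7 ranged from 0.342 to 12.7 with a median of 1.07, on day 14 from 0.311 to 1.396 with a median of 0.731, and the 5 samples of day 21 held 0.473, 0.486, 0.270, 0.0717 and 1.33. All day 3 samples lay far above all uninjured ones, but they also spread widely among themselves, and on day 7 replicates 4 and 5 (2.25 and 12.7) lay within the range of day 3. Against uninjured muscle the log2 fold change was 2.93 on day 3 (standard error, SE, 0.46, adjusted p = 2.15e-05) and 1.29 on day 7 (SE 0.44, adjusted p = 0.0283). The call on day 7 was lost, with an adjusted p of up to 0.0781, when uninjured replicate 1, 2 or 4 or day 7 replicate 4 or 5 was left out, and without day 7 replicate 5 the log2 fold change was 0.82. The precision in uninjured muscle was low, since these samples held only 4 to 19 reads of the gene each, against 202 to 1920 on day 3.

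Adam12 (ENSMUSG00000054555, chromosome 7 from 133883199 to 134232146), or meltrin alpha, a protease known from fusing myoblasts and from fibroblasts, went from near 0 to a narrow range. Its FPKM was 0.0426, 0.02198, 0.0725, 0 and 0.0323 in uninjured muscle and 1.74, 2.05, 2.305, 2.17 and 2.06 on day 3. On day 7 it ranged from 0.372 to 2.98 with a median of 2.096, on day 14 from 0.0481 to 0.7999 with a median of 0.6399, and on day 21 it was 0.163, 0.298, 0.3102, 0.145 and 0.0763. The samples of day 3 lay close together, whereas those of day 7 spread more widely and the lowest of day 14 lay within the uninjured range. Its log2 fold change was 1.57 on day 3 (SE 0.20, adjusted p = 2.64e-06), 1.44 on day 7 (adjusted p = 1.64e-05) and 0.53 on day 14 (adjusted p = 0.0525). All 5 samples of day 21 were still above every uninjured sample, but with a log2 fold change of 0.21 the gene was not called (adjusted p = 0.603). The uninjured samples held 24 reads of Adam12 in all, and on day 14 the gene was called with a pseudocount of 0.1 (1.99) and when day 7 replicate 1, 4, 5 or 6 or day 14 replicate 3 or 6 was left out.

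Adam19 (ENSMUSG00000011256, chromosome 11 from 46055992 to 46147343), or meltrin beta, which is known to shed neuregulin, followed a like course from a higher base. Its FPKM was 0.686, 0.931, 0.8505, 0.594 and 0.614 in uninjured muscle, 2.47, 1.47, 3.10, 3.27 and 3.28 on day 3 and 1.21, 1.49, 1.32, 1.64 and 2.46 on day 21, and it ranged from 0.868 to 3.66 with a median of 2.39 on day 7 and from 0.978 to 2.21 with a median of 1.39 on day 14. The uninjured range did not overlap with that of days 3, 14 or 21, but it did overlap with day 7. On the log2 scale the change was 1.07 on day 3 (SE 0.22, adjusted p = 3.61e-04) and 0.82 on day 7 (adjusted p = 0.00561). It was 0.52 on day 14 (adjusted p = 0.0770) and 0.58 on day 21 (adjusted p = 0.137), neither of them called. Of the exon bases of Adam19, 8.25% are shared with the antisense gene Gm16033 and 6.75% with the antisense gene Gm16034. Reads there cannot be told apart, since the libraries did not mark strand.

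Adam15 (ENSMUSG00000028041, chromosome 3 from 89338542 to 89349996), a widely expressed member that binds integrins, had the highest mean of any member on day 3. Its FPKM was 6.41, 4.56, 6.05, 4.14 and 5.35 in uninjured muscle, 10.2, 11.3, 13.5, 15.6 and 11.3 on day 3 and 6.71, 6.601, 5.86, 6.53 and 11.4 on day 21. The 6 samples of day 7 ranged from 5.02 to 17.6 with a median of 7.37 and on day 14 from 4.91 to 14.6 with a median of 7.795. Only on day 3 did all samples lie above all uninjured ones. The log2 fold change of 1.09 on day 3 (SE 0.26, adjusted p = 0.00135) was called, whereas those on day 7 (0.53, adjusted p = 0.105) and day 14 (0.56, adjusted p = 0.106) were not. Leaving out replicate 3 of day 7 or of day 14 brought the later calls (0.64 and 0.68). The libraries did not mark strand, and 20.6% of the exon bases of Adam15 are shared with the antisense gene 4731419I09Rik, so that the reads of the pair cannot be told apart there.

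Adam10 and Adam17 are the best known sheddases of the family, the former for Notch and many adhesion proteins and the latter for tumour necrosis factor. Adam10 (ENSMUSG00000054693, chromosome 9 from 70678997 to 70780229) had an FPKM of 3.27, 3.62, 3.12, 3.49 and 3.25 in uninjured muscle and 6.62, 5.55, 7.05, 7.13 and 6.33 on day 3. On day 7 it ranged from 3.76 to 8.45 with a median of 5.53, on day 14 from 3.902 to 6.66 with a median of 4.44, and on day 21 it was 3.96, 3.18, 3.61, 4.13 and 5.31. Every sample of days 3, 7 and 14 lay above every uninjured sample, with the lowest of day 7 (3.76) just above the highest uninjured one (3.62). The log2 fold change was 0.79 on day 3 (SE 0.15, adjusted p = 2.19e-04), 0.60 on day 7 (adjusted p = 0.00384) and 0.45 on day 14 (adjusted p = 0.0313). The call on day 14 was lost without uninjured replicate 1, 3, 4 or 5 or day 14 replicate 1 or 5 (log2 fold changes of 0.38 to 0.46, adjusted p up to 0.0885). Adam17 (ENSMUSG00000052593, chromosome 12 from 21323509 to 21373632) had a mean FPKM of 2.78 ± 0.171 (SD, n = 5) in uninjured muscle and 4.25 ± 0.781 (SD, n = 5) on day 3, without overlap, a log2 fold change of 0.46 (SE 0.16, adjusted p = 0.0235). At the later times its means were 3.18, 3.18 and 2.94, with adjusted p from 0.594 to 0.889. The day 3 call of Adam17 was lost without day 3 replicate 3 (log2 fold change 0.44, adjusted p = 0.0527) or replicate 4 (0.39, adjusted p = 0.0759).

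Adam33, a gene known from smooth muscle and fibroblasts of the airway, was first called on day 7. Its mean FPKM was 1.08 ± 0.287 (SD, n = 5) without injury, 1.74 ± 1.37 on day 3, 2.53 ± 0.421 (SD, n = 6) on day 7, 2.49 ± 0.672 on day 14 and 2.51 ± 1.08 on day 21. On day 3 replicate 5 stood at 4.16 and the other 4 samples at 0.885 to 1.42, within the uninjured range. Against uninjured muscle the log2 fold change was 0.77 on day 7 (SE 0.21, adjusted p = 0.00813) and 0.74 on day 14 (adjusted p = 0.0146), with no overlap at either time. On day 21 it was 0.71 (adjusted p = 0.0663), not called, although it was called when day 3 replicate 5, day 21 replicate 3 or day 21 replicate 4 was left out. Adam9, or meltrin gamma, was abundant and made no call, with means of 10.3, 10.01, 10.2, 7.29 and 7.93 from uninjured muscle to day 21 and adjusted p of 0.180 to 0.978. Adam11, which has no working protease and is known from neurons, had group means of 0.274 to 0.544 and was not called.

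**Figure D3:**
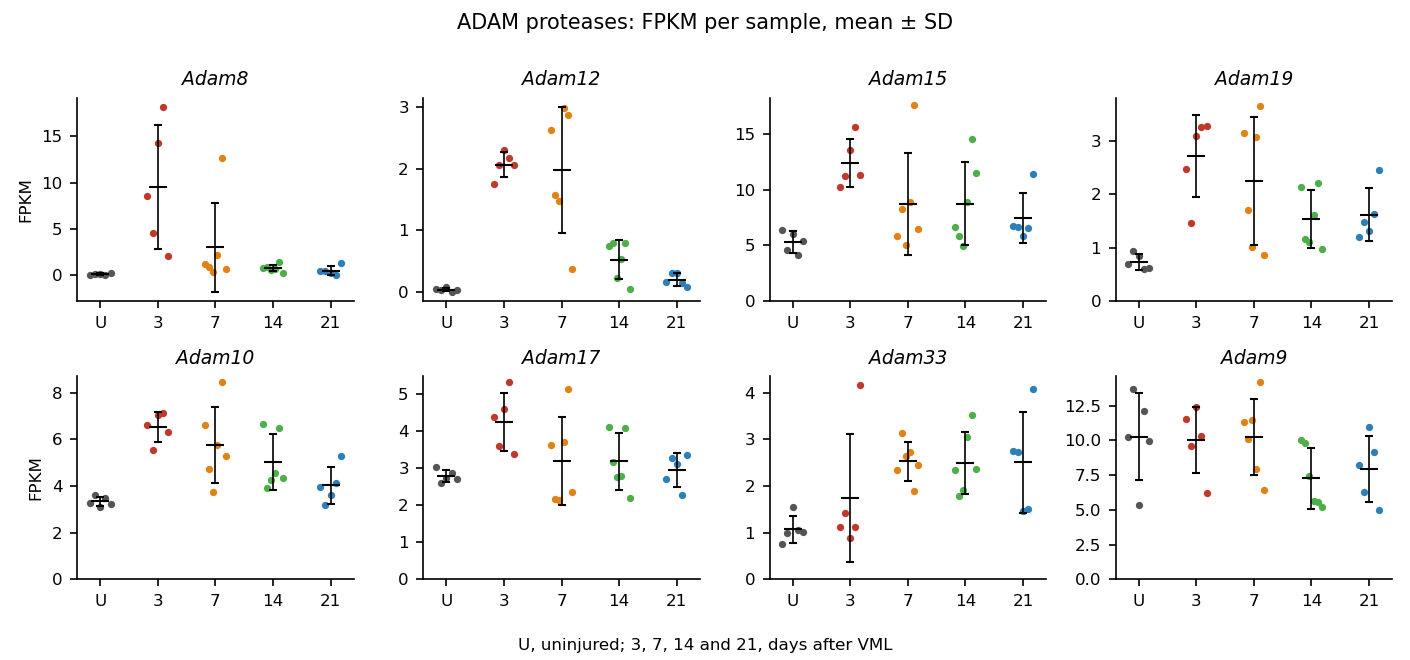
FPKM of 8 active ADAM genes in every sample (y axis, linear) by group (x axis: U, uninjured, n = 5; days 3, 7, 14 and 21 after VML, n = 5, 6, 6 and 5), with a bar for the mean ± SD. Adam8 and Adam12 lie near 0 without injury and rise on day 3, day 7 replicate 5 is the high point of Adam8 (12.7) and Adam15 (17.6) on day 7, and Adam33 on day 3 holds 1 sample at 4.16 above the other 4.

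Among the secreted proteases, both procollagen N-proteinases tested rose, though Adamts14, unlike Adamts2, needed injured muscles to pass the minimum. These enzymes cut the amino-terminal propeptide off collagens I and III so that the collagen can form fibrils. Adamts2 (ENSMUSG00000036545, chromosome 11 from 50602084 to 50807573) had an FPKM of 0.788, 0.9896, 0.621, 1.11 and 1.22 in uninjured muscle and 2.96, 3.53, 4.19, 4.22 and 3.66 on day 3. The 6 samples of day 7 ranged from 2.09 to 6.37 with a median of 3.41, on day 14 from 1.46 to 4.01 with a median of 2.94, and on day 21 it was 1.33, 2.45, 1.73, 1.896 and 1.54. At all 4 times each injured sample lay above each uninjured one. Its log2 fold change was 1.28 on day 3 (SE 0.20, adjusted p = 2.26e-05), 1.25 on day 7 (adjusted p = 7.35e-05) and 0.92 on day 14 (adjusted p = 0.00218). On day 21 it was 0.51, and despite the lack of overlap the gene was not called (adjusted p = 0.147).

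Adamts14 (ENSMUSG00000059901, chromosome 10 from 61197112 to 61273438) had an FPKM of 0.260, 0.358, 0.574, 0.125 and 0.184 in uninjured muscle, 2.296, 1.87, 2.92, 2.58 and 2.52 on day 3 and 0.559, 1.24, 0.528, 0.563 and 2.31 on day 21. It ranged from 0.926 to 3.27 with a median of 1.41 on day 7 and from 0.441 to 1.35 with a median of 0.7903 on day 14. The groups did not overlap on days 3 and 7, and on day 21 a single sample, replicate 5, was close to the level of day 3. On the log2 scale the change was 1.41 on day 3 (SE 0.20, adjusted p = 9.19e-06) and 1.02 on day 7 (adjusted p = 6.52e-04), and neither day 14 (0.52, adjusted p = 0.0583) nor day 21 (0.59, adjusted p = 0.101) was called. The call on day 14 was gained without day 7 replicate 5 or 6, day 14 replicate 3 or day 21 replicate 5 (0.52 to 0.59). Per length, Adamts2 was the more abundant of the pair at every time by the group mean. The remaining N-proteinase, Adamts3, did not pass the minimum and had a highest FPKM of 0.137.

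Adamts7 and Adamts12, which cut COMP, were also called higher, though both needed injured muscles to pass the minimum. Adamts7 (ENSMUSG00000032363, chromosome 9 from 90163069 to 90208071) had an FPKM of 0.394, 0.305, 0.122, 0.207 and 0.228 in uninjured muscle and 1.43, 1.52, 1.21, 1.54 and 2.27 on day 3. On day 7 it ranged from 0.4298 to 2.202 with a median of 1.42, on day 14 from 0.595 to 2.201 with a median of 1.55, and on day 21 it was 0.575, 1.09, 0.778, 0.434 and 1.85. All injured samples of all 4 times exceeded all uninjured ones. The log2 fold change was 1.04 on day 3 (SE 0.21, adjusted p = 3.33e-04), 0.88 on day 7 (adjusted p = 0.00273), 0.91 on day 14 (adjusted p = 0.00341) and 0.60 on day 21 (adjusted p = 0.111), the last not called. Adamts12 (ENSMUSG00000047497, chromosome 15 from 11064790 to 11349231) had an FPKM of 0.406, 0.511, 0.304, 0.268 and 0.275 in uninjured muscle, 0.614, 0.851, 0.968, 1.05 and 1.78 on day 3 and 0.678, 0.475, 0.852, 0.597 and 0.394 on day 21. It ranged from 0.521 to 1.91 with a median of 1.08 on day 7 and from 0.435 to 1.32 with a median of 0.857 on day 14. The ranges were apart from the uninjured one on days 3 and 7 but not later. Against uninjured muscle the log2 fold change was 0.58 on day 3 (SE 0.17, adjusted p = 0.00626), 0.60 on day 7 (adjusted p = 0.00655) and 0.43 on day 14 (adjusted p = 0.0537), the last not called with all samples but called without day 3 replicate 5, day 7 replicate 1, 3 or 6 or day 14 replicate 3 or 6 (0.43 to 0.50).

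Of the 7 hyalectan-cleaving genes, 1 was called higher and 1 lower on days 3 and 7, with medians of 0.04 and 0.09. That is 14.3% each way, against 23.4% and 19.8% of all tested genes on day 3 and 14.96% and 14.4% on day 7. The shares were thus near or below those of all tested genes. On days 14 and 21, 0 were called higher and 1 lower, against 9.02% and 11.3% and then 1.74% and 1.69%. Adamts4 (ENSMUSG00000006403, chromosome 1 from 171250421 to 171260637), an aggrecanase, was the one that rose. Its FPKM was 0.156, 0.0966, 0.0532, 0.0507 and 0.0852 in uninjured muscle and 1.05, 0.572, 1.28, 1.09 and 0.4299 on day 3. The 6 samples of day 7 ranged from 0 to 2.27 with a median of 0.373, on day 14 from 0 to 0.299 with a median of 0.113, and on day 21 it was 0.03696, 0, 0.0744, 0.152 and 0. The rise of day 3 was shared by all 5 samples, whereas the samples of day 7 ran from no read at all to the highest value of the series, and days 14 and 21 lay around the uninjured level. Its log2 fold change was 0.77 on day 3 (SE 0.21, adjusted p = 0.00492) and 0.55 on day 7 (SE 0.20, adjusted p = 0.0436). The call on day 7 was lost when any of the 5 uninjured samples or day 7 replicate 1, 4 or 5 was left out, and without day 7 replicate 5 the log2 fold change was 0.34 (adjusted p = 0.129).

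Adamts8 (ENSMUSG00000031994, chromosome 9 from 30942562 to 30963838), known for cutting proteoglycans and for acting against blood vessel growth, went the other way. Its FPKM was 9.72, 1.41, 4.16, 4.88 and 3.998 in uninjured muscle and 0.343, 3.49, 0.238, 1.45 and 1.15 on day 3. On day 7 it ranged from 0.201 to 2.26 with a median of 1.48, on day 14 from 0.449 to 2.06 with a median of 0.782, and on day 21 it was 0.861, 0.651, 1.47, 0.0721 and 0.563. Of the uninjured samples, replicate 2 (1.41) overlapped with every injured group and the other 4 lay above all injured samples. On the log2 scale the change was -1.33 on day 3 (SE 0.36, adjusted p = 0.00425), -1.31 on day 7 (adjusted p = 0.00658), -1.45 on day 14 (adjusted p = 0.00518) and -1.65 on day 21 (adjusted p = 0.0127), and the mean was lowest on day 21. With the FPKM of every sample scaled to 1 sum, the log2 fold changes of Adamts8 were -0.81 on day 3, -0.83 on day 7 and -1.42 on day 21 and were not called (adjusted p = 0.0709, 0.0569 and 0.0934), nor was the gene called on day 21 with voom weights (-2.89, adjusted p = 0.0783). It was called at all 4 times when any single sample was left out. Its exons share 489 bases with the antisense gene Gm29724.

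None of the other 5 hyalectanases was called at any time. Adamts1 had group means of 2.62 to 4.68, Adamts5, the other main aggrecanase, of 1.84 to 2.07, Adamts9 of 0.453 to 0.609, Adamts15 of 0.320 to 0.800 and Adamts20 of 0.203 to 0.635. The lowest adjusted p among them was that of Adamts20 on day 14 (0.0645), which passed without day 14 replicate 6 (log2 fold change 0.52). For Adamts1, Adamts5 and Adamts15 the highest value of day 3 came from replicate 5 (4.28, 3.25 and 1.25), and the other 4 samples of that day lay at or below 2.57, 1.68 and 0.384.

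Adamts10 (ENSMUSG00000024299, chromosome 17 from 33524204 to 33553782), a protein of the fibrillin microfibrils, was the 1 of 7 other ADAMTS genes that passed the minimum. Its FPKM was 2.86, 2.81, 2.09, 2.82 and 2.32 in uninjured muscle, 2.96, 1.98, 3.03, 3.53 and 6.81 on day 3 and 3.21, 3.86, 2.66, 3.59 and 7.803 on day 21, and it ranged from 3.19 to 6.55 with a median of 4.31 on day 7 and from 3.14 to 9.63 with a median of 4.55 on day 14. All samples of days 7 and 14 lay above the uninjured ones. The log2 fold change of 0.73 on day 14 (SE 0.25, adjusted p = 0.0381) was called and that of 0.59 on day 7 (adjusted p = 0.0711) was not. The call was lost when any of the 5 uninjured samples or day 14 replicate 1, 4 or 5 was left out, with log2 fold changes of 0.56 to 0.76 and adjusted p of up to 0.116. It was gained on day 7 when day 3 replicate 5, day 7 replicate 3, day 14 replicate 5 or day 21 replicate 5 was left out.

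The ADAMTS-like genes, whose products bind fibrillin microfibrils and cut nothing themselves, were both lower by their means on day 3 than on day 21. That difference was called for Adamtsl4 but not for Adamtsl5 (log2 difference 0.53, adjusted p = 0.0547). For Adamtsl5 its sign turned with the FPKM of every sample scaled to 1 sum. Adamtsl5 (ENSMUSG00000043822, chromosome 10 from 80339110 to 80348412) had an FPKM of 21.7, 14.03, 18.2, 16.4 and 18.2 in uninjured muscle and 11.3, 17.7, 8.85, 8.62 and 12.4 on day 3. The 6 samples of day 7 ranged from 7.92 to 16.3 with a median of 8.84, on day 14 from 9.89 to 16.4 with a median of 13.4, and on day 21 it was 12.99, 17.5, 19.8, 14.5 and 21.1. The ranges overlapped with the uninjured one at every time. The log2 fold change was -0.58 on day 3 (SE 0.20, adjusted p = 0.0220), -0.68 on day 7 (adjusted p = 0.0103) and -0.40 on day 14 (adjusted p = 0.140), the last not called. With the FPKM of every sample scaled to 1 sum its value on day 3 turned to 0.19 and that on day 7 to -0.0060, and without uninjured replicate 1, day 3 replicate 3 or day 3 replicate 4 the call on day 3 was lost (adjusted p of 0.0616 to 0.0744).

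Adamtsl4 was not called against uninjured muscle at any time but differed between the ends of the series. Its mean FPKM was 5.597 ± 1.29 (SD, n = 5) without injury, 4.08 ± 2.31 on day 3, 8.43 ± 6.84 (SD, n = 6) on day 7, 8.17 ± 2.41 on day 14 and 11.04 ± 4.84 (SD, n = 5) on day 21. On day 3 its samples held 3.94, 3.41, 2.52, 2.47 and 8.05, and on day 21 7.92, 11.3, 9.46, 7.24 and 19.2. The highest value of day 3 was that of replicate 5, inside the range of day 21, and the other 4 lay below all samples of day 21. The log2 difference between day 21 and day 3 was 1.26 (SE 0.35, adjusted p = 0.0107).

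**Figure D4:**
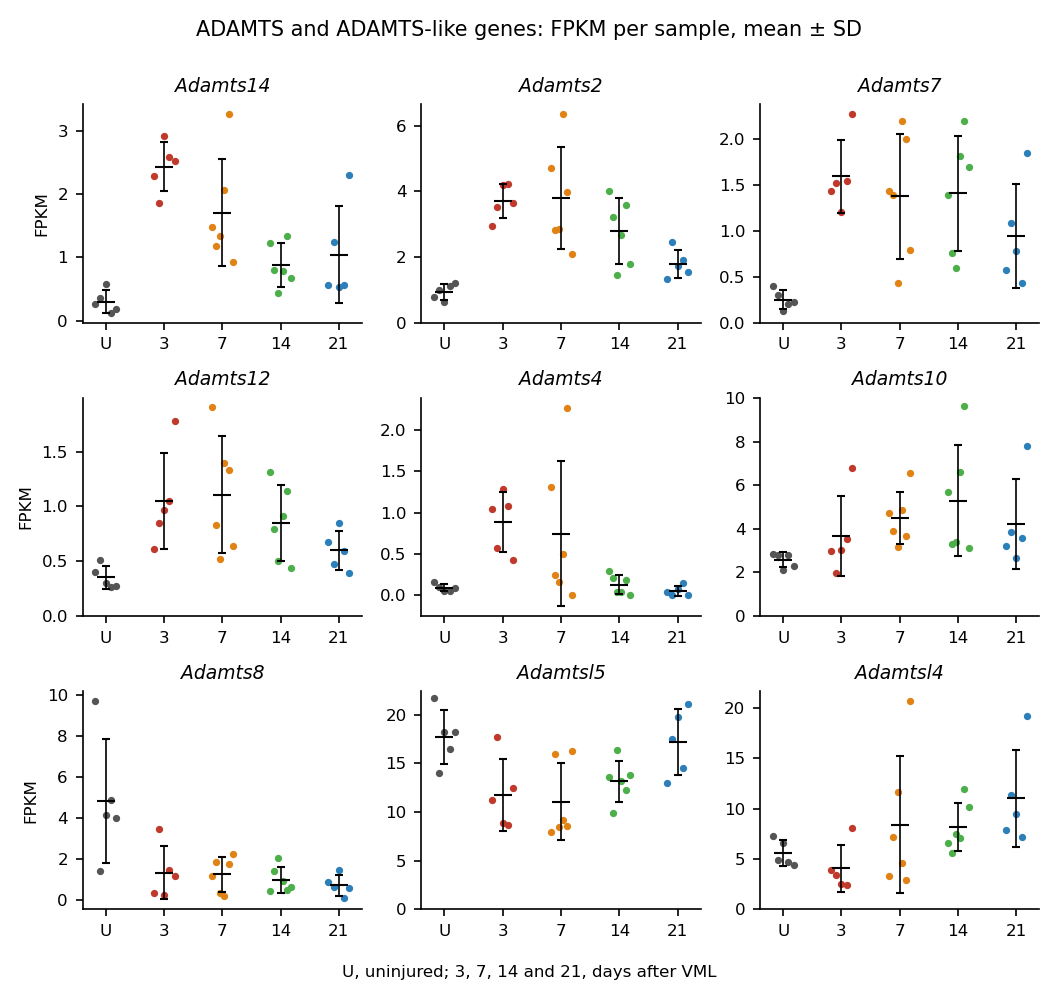
FPKM of 7 ADAMTS genes and 2 ADAMTS-like genes in every sample (y axis, linear) by group (x axis: U, uninjured, n = 5; days 3, 7, 14 and 21 after VML, n = 5, 6, 6 and 5), with a bar for the mean ± SD. Adamts14, Adamts2 and Adamts7 stand above the uninjured samples in all samples of days 3 and 7, Adamts8 lies below 4 of its 5 uninjured samples at every time, and Adamtsl4 and Adamtsl5 have higher means on day 21 than on day 3. The last difference was called for Adamtsl4 but not for Adamtsl5.

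Between day 3 and day 21 the question was whether the early changes had subsided. Directly compared, 7 of the 23 members were lower on day 21 than on day 3 and 1 was higher, against 16.2% and 9.23% of all tested genes, and the median was -0.32. Among the 13 members at or above 0.5 in every uninjured sample, 3 were lower and 1 was higher. The decrease was largest for Adam8 (-2.55, SE 0.46, adjusted p = 2.77e-04), followed by Adam12 (-1.36, adjusted p = 6.14e-05), Adamts4 (-0.82, adjusted p = 0.00637) and Adamts14 (-0.82, adjusted p = 0.00452). Adamts2 (-0.76, adjusted p = 0.00658), Adam15 (-0.69, adjusted p = 0.0496) and Adam10 (-0.59, adjusted p = 0.00616) followed. The call of Adam15 was lost in 18 of the 27 fits that left out 1 sample, with an adjusted p of up to 0.133 without day 3 replicate 4. For Adam19 (-0.49, adjusted p = 0.0996), Adamts7 (-0.45, adjusted p = 0.122), Adamts12 (-0.34, adjusted p = 0.131) and Adam17 (-0.41, adjusted p = 0.0657) the difference between the times was not called, so that a decrease was not shown for these genes. It was called for Adam17 without day 3 replicate 5 or day 7 replicate 5, for Adam19 without day 3 replicate 2 and for Adamts7 without day 21 replicate 5. Adamts8 on day 21 was not called against day 3 either (-0.32, adjusted p = 0.541). These differences share the samples of day 3 and day 21 with the comparisons against uninjured muscle.

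On day 21, then, Adamts8 was the 1 member called, and it was lower. Besides it, 6 members had an unadjusted p under 0.05, all of them higher than in uninjured muscle. Of all 14630 tested genes, 2898 had such a p in either direction. The 6 were Adamtsl4 (log2 fold change 0.81), Adam33 (0.71), Adamts7 (0.60), Adamts14 (0.59), Adam19 (0.58) and Adamts2 (0.51), with adjusted p of 0.0663 to 0.201. Among them Adamts7 and Adamts14 needed injured muscles to pass the minimum. The number called higher on day 21 was 0 with all samples in 1 fit, 3 with a pseudocount of 0.1 and 4 when the fit held only the 2 groups compared. Of all 14630 tested genes, 255, 412 and 757 were called higher in these fits. On day 14 the number called higher moved from 5 to 3 without uninjured replicate 1, 3, 4 or 5 or day 14 replicate 1 or 5, to 8 without day 7 replicate 6 or day 14 replicate 6, and to 9 without day 14 replicate 3. Over all tested genes the number moved in the same fits from 1320 to between 835 and 1121, to 1411 or 1361, and to 1451. Without day 3 replicate 5 and day 7 replicate 5 11 members were higher and 2 lower on day 3, and 10 and 2 on day 7, as with them. On day 14 there were then 9 and 1, and on day 21 1 and 1. Of all tested genes, 1704 were then higher and 1811 lower on day 14, and 369 and 333 on day 21.

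Members below the minimum were tested in a separate fit with no filter on low values, over 31179 genes, in which 47 members had a value above 0. Adam23, which has no working protease and is known from neurons, was called higher on day 3 (log2 fold change 0.22, adjusted p = 0.00462), day 7 (0.25, adjusted p = 0.00262) and day 14 (0.18, adjusted p = 0.0355). Adamts17 was called higher on days 7 (0.20, adjusted p = 0.0482) and 14 (0.21, adjusted p = 0.0427), and Adamts16 on day 14 (0.23, adjusted p = 0.0240). Of the 31179 genes in this fit, 3617, 1794 and 962 were called higher on days 3, 7 and 14. The group means of Adam23, Adamts17 and Adamts16 stayed below an FPKM of 0.5 throughout, and the other members below the minimum were not called against uninjured muscle. The highest group mean was 0.247 for Adam23, 0.199 for Adamts17 and 0.222 for Adamts16.

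The genes around the proteases were read from 4 lists, and the counts of these and of the marker lists stand against 23.4%, 14.96%, 9.02% and 1.74% of all tested genes called higher and 19.8%, 14.4%, 11.3% and 1.69% called lower on days 3, 7, 14 and 21. Of 7 inhibitors of these enzymes, 5 were tested. Timp1 and Timp2 were higher on day 3 (log2 fold changes of 4.46 and 1.62, adjusted p = 1.18e-07 and 1.71e-05), and Timp4 was lower (-1.60, adjusted p = 0.00877). Timp3, the inhibitor known to act best on ADAMTS proteases and on ADAM17, was not called at any time, with a log2 fold change of -0.11 on day 3 and 0.53 on day 14 (adjusted p = 0.175), and neither was Reck, an inhibitor of ADAM10 on the cell surface. On day 21 Timp1 was the 1 inhibitor called (1.61, adjusted p = 0.0411). Of 15 genes for maturation, trafficking and uptake of the proteases, 14 were tested and 8 were higher on day 3, 5 on day 7, 2 on day 14 (14.3% of the list) and 0 on day 21, the last 2 near the share of all tested genes, with none lower. The largest on day 3 were Lrp1 (1.79), an uptake receptor for several ADAMTS proteins, Fbln1 (1.03), a cofactor of ADAMTS1, and Tspan17 (0.88), a tetraspanin partner of ADAM10.

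Of 14 matrix substrates, 10 were tested and 9 were higher on days 3 and 7, 6 on day 14 and 4 on day 21, with none lower, and the median log2 fold change was 2.29 on day 3 and 0.83 on day 21. Col1a1 (3.66), Col3a1 (3.16) and Col1a2 (2.83), substrates of the N-proteinases, led the list on day 3. Comp, the substrate of Adamts7 and Adamts12, was higher at all 4 times, by 1.22 on day 3 and 1.23 on day 21 (adjusted p = 0.0262). Vcan, the hyalectan among the tested substrates, was higher on day 3 (1.16) and day 7 (0.73). These 3 collagens were called on day 21 and the N-proteinases were not, and the difference between the genes was not tested. Of 27 ligands and receptors known to be shed, 21 were tested, and 12 were higher and 1 (Egf, -0.38) lower on day 3. Trem2 (4.08), Csf1r (3.64) and Cxcl16 (2.60), all known from macrophages, led this list. Tnf and Hbegf were not called (adjusted p = 0.131 and 0.199 on day 3), and Ncam1, an adhesion protein of regenerating and denervated fibres, was the 1 gene called on day 21 (1.27, adjusted p = 0.0179).

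Markers of the cells that such muscle can hold moved over the same days. In a bulk sample, a change in the number of cells of a type and a change in RNA per cell cannot be told apart. All 8 macrophage markers were higher on day 3 and 7 of 8 on day 7, and their summed FPKM went from 30.8 to 43.0 in uninjured samples to 571 to 3008 on day 3, 77.2 to 2886 on day 7, 70.4 to 175 on day 14 and 56.2 to 99.7 on day 21. Of 6 neutrophil markers 3 were tested. All 3 were higher on day 3, 2 on day 7 and 0 on days 14 and 21. Sums over the 6 markers were 0.456 to 4.31 in uninjured muscle and 20.2 to 37.6 on day 3. On day 7 these sums ran from 2.01 to 98.8 with a median of 16.7, and the highest lay above every day 3 sample. Ly6g was at 0 in uninjured muscle and on days 7, 14 and 21. The median of the macrophage sums was 35.4 in uninjured muscle, 2014 on day 3 and 380 on day 7. Of 8 markers of fibroblasts and fibro-adipogenic progenitors, 6, 5, 6 and 1 were higher at the successive times, with sums of 131 to 184 without injury, 399.6 to 759 on day 3 and 168 to 252 on day 21. Of 5 markers of satellite cells and myoblasts, 4 were higher on day 3 and 3 at each later time. Of 8 myofibre markers, which define the tissue, all were present in every group, and 5 were lower on day 3, 4 on day 7, 1 on day 14 and 0 on day 21. Of 6 markers of endothelium, 2, 2, 1 and 1 were lower at the successive times. Tendon cells had 3 of 4 markers tested, with 1 higher up to day 14, and mural cells had 5, with 1 higher and 2 lower on day 3 and 1 lower on day 7. All 3 tested adipocyte markers of 4 were higher on day 7, and none of 4 tested Schwann cell markers of 5 or 2 tested lymphocyte markers of 5 was called. The part of these cell types in the changes of the proteases was not tested.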

How the data were processed

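Poly-A RNA of 27 muscles was sequenced by the study with non-directional libraries. Per the labels and the submitters' processing notes, reads were aligned with HISAT2 2.0.5 and counted with featureCounts 1.5.0-p3, and the authors deposited 1 table of FPKM per gene and sample. The genome build is not given in the sources used here, and the coordinates of 56 of the 57 members were those of GENCODE M21 (GRCm38). FPKM times gene length gave whole reads (within 0.01) for 100% of values, 14376395 to 24436763 per sample, and the denominators held in the deposited FPKM were 0.747 to 1.48 times these totals, a scaling between samples that the sources do not name. By group, the mean of this ratio was lowest in uninjured muscle (0.782) and highest on day 3 (1.25).

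Genes with an FPKM of 0.5 or more in 5 or more samples were kept, a pseudocount of 1 was added, and log2 values were fitted with limma 3.58.1 (R 4.3.3; moderated, with a variance trend, a mean per group, two-sided, Benjamini-Hochberg adjustment at 0.05). A log2 fold change is a difference of group means of log2(FPKM + 1) and understates the change of low genes. Groups came from the sample titles. On simulated data, 90.5% to 94.0% of 200 changed genes among 14630 were recovered at the 4 time points, with 6 to 16 false calls. Recovery at the sizes and spreads seen in the members was not tested. Alternatives were a pseudocount of 0.1, no filter, an FPKM minimum of 1, a common sum per sample, quantile normalization, no trend, only the 2 groups compared, the replicate number as a block, voom on the recovered reads (3282 genes higher and 2894 lower at day 3), each sample left out, and day 3 replicate 5 and day 7 replicate 5 left out together. Members, roles and gene lists were chosen with earlier results of these data known. Every tested member was named under its role, and the called members of each role with the largest changes, at most 5, were given sample by sample in groups of 5 and as range and median in groups of 6. Promoter windows came from RefSeq (GRCm38.p6). Python 3.11.15, pandas 2.3.3, numpy 2.4.6 and matplotlib 3.10.9 were used.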

Additional observations from a re-analysis of the deposited data

Results flagged for a closer look

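In 11 of 115 sets of values (23 tested members in 5 groups), the highest sample stood apart from the others of its group by the gap divided by the range (Dixon's ratio at 95%). The lowest sample of each set was examined too, and none stood apart. By chance about 1 set in 20 would be flagged at either end, if the values were normal and the sets independent. These sets share samples, and the FPKM was not log transformed. Day 3 replicate 5 accounted for 5 of them, with an FPKM of 4.16 for Adam33 (next highest of day 3 1.42), 4.28 for Adamts1 (2.57), 1.25 for Adamts15 (0.384), 3.25 for Adamts5 (1.68) and 8.05 for Adamtsl4 (3.94). Day 7 replicate 5 accounted for 2, with 17.6 for Adam15 (8.90) and 12.7 for Adam8 (2.25), and day 21 replicate 5 for 2, with 11.4 for Adam15 (6.71) and 7.80 for Adamts10 (3.86). The remaining 2 were Adam11 in day 7 replicate 6 (1.22, next 0.569) and Adam8 in uninjured replicate 5 (0.280, next 0.110). Day 3 replicate 5 and day 7 replicate 5 lay nearest to each other's group over all tested genes, and what sets these samples apart was not tested.

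The change against uninjured muscle differed between day 3 and day 21 for 8 members by the limma test of that difference. On the log2 scale, day 21 minus day 3 was -2.55 for Adam8, -1.36 for Adam12, -0.82 for Adamts4, -0.82 for Adamts14, -0.76 for Adamts2, -0.69 for Adam15 and -0.59 for Adam10, and 1.26 for Adamtsl4.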

How the results depend on the processing

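Of the 40 pairs of member and comparison that were called, 29 were called in the same direction under every alternative and each omission of a sample. The other 11 were Adam8 and Adamts4 at day 7, Adam17 at day 3, Adam10 and Adamts10 at day 14, Adam15 between days 21 and 3, Adamtsl5 at days 3 and 7 and Adamts8 at days 3, 7 and 21. The count of members called lower was 0 with FPKM rescaled to a common sum (TPM) at days 3, 7 and 21, and 0 with voom weights at day 21. The count called higher at day 14 was 10 with a pseudocount of 0.1, 10 with only the 2 groups compared and 9 without day 3 replicate 5 and day 7 replicate 5, and 2 were lower with only the 2 groups. Among all tested genes, 1697, 1870 and 1704 were higher in these fits, against 1320 in the main fit. With only the 2 groups, 1878 were lower, against 1649. The count called higher at day 21 was 3 with a pseudocount of 0.1, 4 with only the 2 groups and 1 without both samples, and that higher at day 21 than at day 3 was 2 with quantile normalization and 2 without both samples. For all tested genes the day 21 counts were 412, 757 and 369, against 255 in the main fit. Those higher at day 21 than at day 3 were 2108 and 1666, against 1351. When 1 sample was omitted at a time, the count ranged from 1 to 2 (lower at day 3), 3 to 9 (higher at day 14), 0 to 1 (higher at day 21) and 1 to 2 (higher at day 21 than at day 3). The rescaling turned Adamtsl5 to 0.19 at day 3, 0.049 at day 14 and -0.056 between days 21 and 3. It also raised the share of all called genes that were higher from 54.1%, 51.0%, 44.5% and 50.8% to 95.5%, 96.8%, 94.0% and 85.7% at the 4 successive times, and between days 21 and 3 lowered it from 36.2% to 3.37%, with a median of -0.41. Quantile normalization gave 42.6% at day 3, with a median of -0.12, and brought the share between days 21 and 3 to 50.04%. The cause of these shifts was not tested.

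With the replicate number of the titles as a replicate block, 10 members were called higher at day 14, and none of the 40 calls was lost. Of all tested genes, 1643 were higher at day 14 with this block, against 1320 without it. Over 51 pairs of samples with 1 number, the correlation of their deviations from the group means had a median of -0.003 and exceeded 0.1 in 15. Over 240 pairs with different numbers the median was 0.003, and 55 exceeded 0.1. These correlations cannot settle whether the numbers pair the samples. Depth limits the members under 0.5 FPKM, such as Adam8 and Adam12 in uninjured muscle, where a few reads set the value.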
